A study of Rattus norvegicus with 6 samples.

Results

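Cultured adipose-derived stem cells (ADSCs) were compared with sham-operated heart muscle, gene by gene and family by family, on 2 of the 6 arrays of a rat series. ADSCs are mesenchymal cells that grow out of fat tissue on plastic. They are known for secreting matrix and growth factors and for their capacity to form fat, bone and cartilage cells. Myocardium is a mixed tissue of cardiomyocytes, endothelial cells, fibroblasts, mural cells, resident macrophages and blood, and cardiomyocytes supply most of its RNA. The cardiomyocyte is built around the sarcomere, is driven by calcium released from the sarcoplasmic reticulum, and burns mainly fatty acids in densely packed mitochondria.

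The members were chosen by their labels: the array of unlabelled ADSCs and the array of sham-operated myocardium, 1 each. Both samples came from Sprague Dawley rats 13 weeks old. The myocardium was taken 21 days after a sham operation, and the cells had been in culture for 14 days without the radioiodinated tracer 124I-HIB, with which the study labelled the cells it transplanted. The labels do not say how many animals gave the tissue or the cells, nor the passage of the culture. The other 4 arrays serve here as reference values: infarcted myocardium injected with buffer (PBS), 2 arrays of infarcted myocardium injected with 124I-HIB-labelled ADSCs (numbered replicates 1 and 3 in the labels), and 124I-HIB-labelled ADSCs after 14 days of culture. They came from rats of the same strain and age, and the labels give 21 days for each myocardial sample. With 1 array on each side there is no replicate spread, so no test was run and no p-value or error is given. A difference is described by its size, and a gene is called higher or lower where it passed 2-fold.

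Each array's signal was set against its own 75th percentile, and a level below is the log2 of that ratio. The share of probes well above background was 61.7% in sham and 67.3% in the unlabelled cells, against 63.3% to 66.5% on the other 4 arrays, and no spot was saturated. The signal at the 75th percentile was 762 in sham and 2328 in the unlabelled cells. The cell arrays lay in another row of the slide than the myocardial arrays, so row and sample kind cannot be told apart, and the labels give no extraction batch. In whole tissue, fewer cells of a type and less RNA per cell cannot be told apart.

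Of 27443 features (15443 named genes and the unnamed probes), 15792 were well above background on both arrays. Of these, 6902 (43.7%) stood 2-fold apart, 3227 higher in the cells (20.4%) and 3675 lower (23.3%), with a median log2 difference of 0.02 over all 15792. Other scalings moved that median between -0.22 (normexp background correction) and 0.22 (scaling to each array's median), and with them which direction held more calls. The far tails were unequal: 76 features were over 128-fold lower in the cells and 6 were over 128-fold higher. A further 2615 features (9.53% of all) were well above background in the cells alone, and 1110 (4.04%) in sham alone. For scale, the 2 arrays of treated infarcts differed 2-fold at 1.27% of features and labelled from unlabelled cells at 0.94%. Where a gene was not well above background on 1 array, its difference is given only as a bound, at least N-fold. For such a bound the bright level was compared with the dimmest probe on the other array that still stood well above background, or with the gene's own dim signal where that was higher. The dimmest such probe does not mark a limit of detection.

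**Figure D1:**
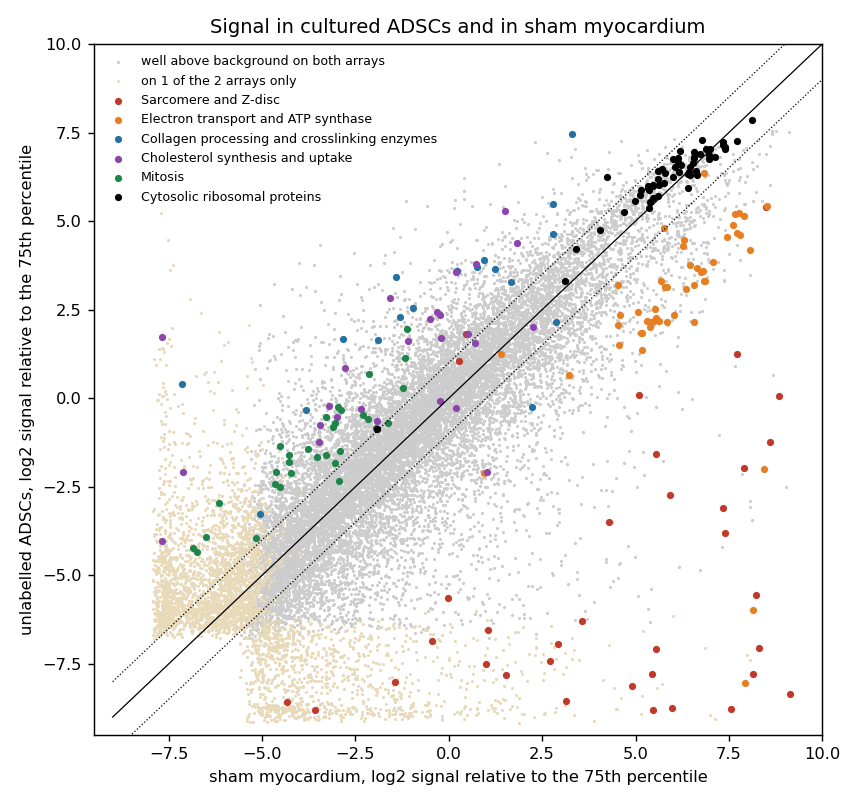
Log2 level of every feature on the sham array (x axis) and on the unlabelled ADSC array (y axis), with 6 gene lists in colour; the solid line marks equal levels and the dotted lines 2-fold. Ribosomal protein genes lie along the line, sarcomere and electron transport genes lie below it, and collagen-processing, cholesterol and mitosis genes lie mostly above it.

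Cell type markers placed both samples as their labels say. Among 12 stromal markers, 9 of the 11 measured on both arrays were higher in the cells, against 20.4% of all features, with a median difference of 3.02 against 0.02. Thy1, a classical surface antigen of mesenchymal stromal cells (CD90), was well above background in the cells alone, at a level of 0.94 against -7.56 in sham, at least 93.3-fold higher. Pdgfra, the receptor that marks mesenchymal cells, was at 4.46 in the cells and 1.44 in sham, 8.12-fold higher. Cd44, the hyaluronan receptor, was 8.62-fold higher by its brightest probe, while its other probe gave a log2 difference of 0.09. Dcn (decorin) and Nt5e (CD73), the remaining stromal markers, differed by 0.34 and 0.21, under 2-fold. All 13 ventricular cardiomyocyte markers were well above background in sham. Of these, 7 were measured in the cells as well and all 7 were lower there, with a median difference of -9.86, and the other 6 were not well above background in the cells.

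Markers of blood endothelium and macrophages were lower or not well above background in the culture. Of 11 blood endothelial markers on the array, 5 were measured on both arrays and all 5 were lower in the cells, with a median of -2.74, and 6 were well above background in sham alone. Pecam1, the endothelial junction protein CD31, was 87.4-fold lower, at -3.51 in the cells and 2.94 in sham. Emcn and Esam, both endothelial surface proteins, were at least 97.3-fold and 176-fold lower. Macrophage and monocyte markers gave the same picture, with 7 of 7 measured markers lower (median -3.46) and 5 in sham alone. C1qa, a subunit of the complement starter C1q, was at least 224-fold lower, and Tyrobp, a myeloid signalling adaptor, was 169.6-fold lower. Ptprc, the pan-leukocyte antigen CD45, was at -1.50 in sham and not well above background in the cells, at least 39.3-fold lower.

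Some markers did not follow that division. Among mast cell markers and among Schwann and neuronal markers, Hdc and Pmp22 were higher in the cells, with log2 differences of 2.41 and 2.48. In each of these lists 2 measured markers were lower. Cd14, a monocyte co-receptor for lipopolysaccharide often used to exclude monocytes from stromal cultures, was 5.72-fold higher in the cells, at 0.25 against -2.27. Cd34, an antigen of stromal cells in fat and of endothelium, differed by -0.90, under 2-fold. Pdpn, listed as a lymphatic endothelial marker and also made by fibroblasts, was 64.5-fold higher in the cells, whereas the lymphatic receptor Flt4 differed by -0.49 and Lyve1, a hyaluronan receptor of lymphatic vessels, was at least 39.8-fold lower. Msln and Bnc1, mesothelial genes, were well above background in the cells and not in sham, at least 30.2-fold and 7.09-fold higher. Of 7 mesothelial markers on the array, 3 were in the cells alone and 2 on neither array. The 2 measured on both arrays had log2 differences of -2.32 and -0.84. Across the other myocardial arrays Msln reached 0.96, above its level of -0.69 in the cells. The part of such cells in the comparison was not tested. The mural cell list split by gene: the contractile genes Tagln and Acta2 were 8.33-fold and 7.55-fold higher in the cells, while the pericyte channel subunits Kcnj8 and Abcc9 were 13.1-fold and 50.7-fold lower and the pericyte marker Rgs5 was at least 266-fold lower.

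**Figure D2:**
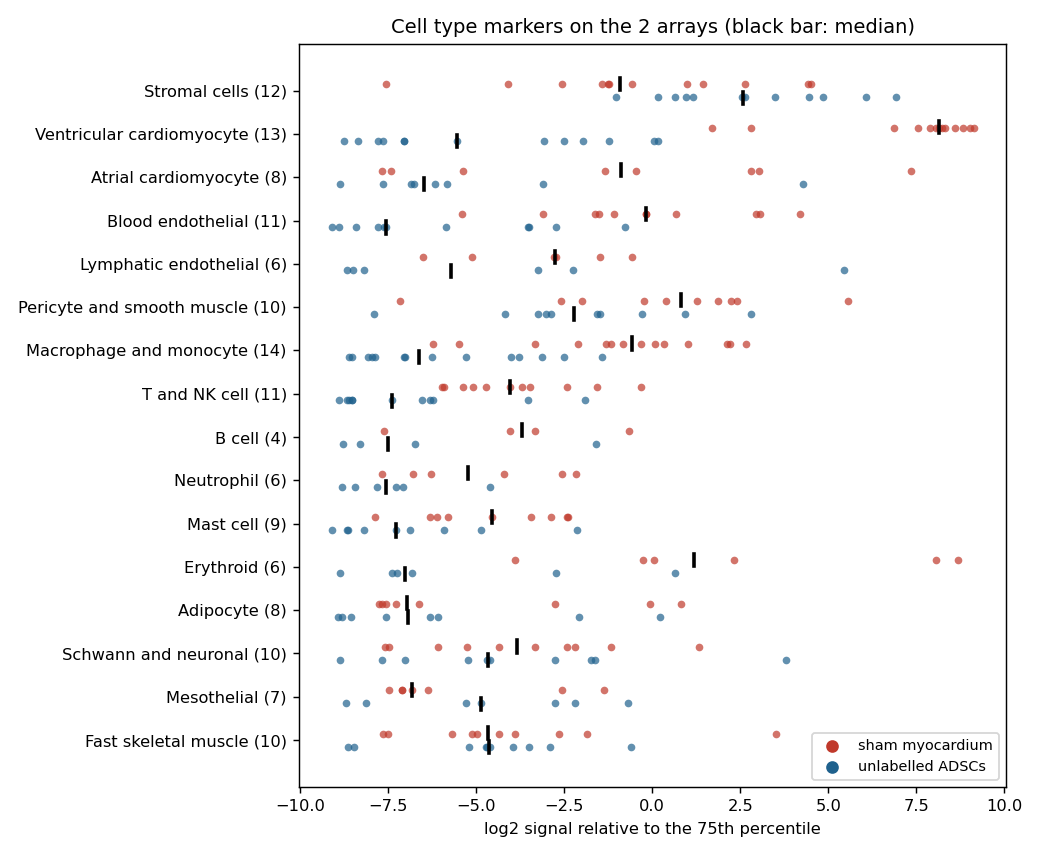
Log2 level of every marker on the array for 16 cell types in sham myocardium (red) and unlabelled ADSCs (blue), with the number of markers in brackets and a black bar at each median. For the ventricular markers the sham symbols lie far to the right of those of the cells, and the stromal markers lie further right in the cells.

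Surface antigens used to define mesenchymal stromal cells were higher only in part. Of 18 measured on both arrays, 8 were higher and 4 lower in the cells, with a median of 0.69. Anpep (the aminopeptidase CD13) was 43.6-fold higher, Icam1 (an adhesion ligand for leukocytes) 21.2-fold and Alcam (CD166) 6.71-fold. Eng (CD105) and Vcam1 (CD106) differed by -0.11 and 0.10. Mcam (CD146), an adhesion molecule of pericytes and endothelium, was 24.7-fold lower, and Cspg4 (NG2), a pericyte proteoglycan, was 4.47-fold lower. Heart stroma and vessels also carry these antigens, and the comparison is with whole tissue.

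The sarcomere is the contractile unit of striated muscle, and its genes were the furthest from the diagonal. Of 35 sarcomere and Z-disc genes on the array, all 35 were well above background in sham and 16 in the cells. Of those 16, 14 were lower in the cells, with a median difference of -8.22, and 19 were in sham alone. Myh6, the alpha myosin heavy chain of adult rat ventricle, had a level of 9.13 in sham and 8.38 to 9.13 over the 4 myocardial arrays, against -8.36 and -8.57 in unlabelled and labelled cells, where it was not well above background. The bound was at least 62102-fold lower. Myh7, the beta heavy chain, was at least 35492-fold lower, and Myl3 and Myl2, the ventricular light chains, at least 31673-fold and 20767-fold lower. Probes for close relatives, such as the myosin heavy chains, may report more than 1 gene.

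Several thin-filament genes were measured on both arrays. Tnni3, cardiac troponin I, was at 8.22 in sham and -5.56 in the cells, 14101-fold lower. Tnnt2 and Tnnc1, the other cardiac troponin subunits, were 920.4-fold and 931-fold lower. Actc1, cardiac alpha actin, was at 8.84 in sham and 0.06 in the cells, 439-fold lower, so that its signal in the cells lay close to that array's 75th percentile. Tpm1, a tropomyosin with forms for muscle and for other cells, was 88.1-fold lower by its brightest probe, while another probe gave 2.67 in log2, the opposite direction. Tcap, the titin cap of the Z-disc, was 2370.5-fold lower, and Csrp3, a Z-disc LIM protein, at least 7055-fold lower. The members that were not lower were Flnc, a filamin of the Z-disc, at 0.77, and Pdlim5, a Z-disc scaffold, which was 2.53-fold higher.

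Promoters of this list are printed because these genes moved together, and matches to a pair of muscle motifs were more frequent among them than in all promoters. Serum response factor binds the CArG box and MEF2 factors bind the MEF2 site. RefSeq promoter windows covered 250 bases before to 50 after the gene start (assembly GRCr8). They were looked up by symbol for the whole list, on the array or not, and found for 33 of the sarcomere genes. The CArG box was matched on either strand in 6 of the 33 (18.2%), against 1.6% of all 27457 promoters, and the MEF2 site in 8 (24.2%) against 3.4%. Over promoters of the genes measured on both arrays the shares were 1.2% and 1.4%. A match is a description, not a site of binding, and the absence of one says only that these letters are not in the window. The 250 bases before the start are given 5′ to 3′ on the gene's own strand for Myl3 (chr8:119616844-119617093, plus strand), Acta1 (chr19:68784195-68784444, minus strand) and Mybpc3 (chr3:97550811-97551060, plus strand), with the CArG box in capitals in the first pair and the MEF2 site in the last.
Myl3: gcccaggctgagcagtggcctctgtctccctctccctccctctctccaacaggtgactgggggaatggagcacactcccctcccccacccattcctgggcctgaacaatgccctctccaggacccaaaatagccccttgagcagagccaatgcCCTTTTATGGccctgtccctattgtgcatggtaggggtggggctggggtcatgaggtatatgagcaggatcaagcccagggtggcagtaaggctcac
Acta1: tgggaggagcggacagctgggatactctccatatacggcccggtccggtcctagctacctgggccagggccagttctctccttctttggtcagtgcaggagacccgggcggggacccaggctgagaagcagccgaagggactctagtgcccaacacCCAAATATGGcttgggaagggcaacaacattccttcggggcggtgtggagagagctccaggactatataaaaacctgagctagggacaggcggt
Mybpc3: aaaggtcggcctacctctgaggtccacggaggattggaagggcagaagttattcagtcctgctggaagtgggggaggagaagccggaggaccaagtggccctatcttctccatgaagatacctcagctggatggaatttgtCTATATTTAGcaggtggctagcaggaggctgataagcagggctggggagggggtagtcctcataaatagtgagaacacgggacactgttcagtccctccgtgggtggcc
Acta1, skeletal alpha actin, which the rat heart also makes, was 221-fold lower in the cells, and Mybpc3, cardiac myosin-binding protein C, at least 4925-fold lower. A CCAAT match at position -104 of Myl3, before its CArG box, is not marked. Capitals in Myl3 begin at position -97 from the gene start, in Acta1 at -94 and in Mybpc3 at -109.

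Calcium handling genes were mostly lower in the cells. Of 17 measured on both arrays, 10 were lower in the cells and 2 higher, with a median of -1.91. Pln (phospholamban, the brake on the calcium pump) was 2250.2-fold lower, Hrc (a calcium-binding protein of the reticulum) 2508-fold and Casq2 (cardiac calsequestrin, the calcium store) 1936-fold. Ryr2, the cardiac calcium release channel, was only 2.87-fold lower, at 0.17 in the cells against 1.69 in sham and 1.24 to 1.69 over the 4 myocardial arrays. Atp2a2, the reticulum calcium pump, was 109-fold lower by its brightest probe and -0.51 in log2 by its other probe. Itpr1, the inositol trisphosphate receptor, and Atp2b1, a plasma membrane pump, differed by 0.07 and 0.18. The higher members were Fkbp1b and Sri (sorcin), both partners of the ryanodine receptor, 4.58-fold and 2.52-fold.

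Genes of cardiac excitation and conduction were lower in the cells with few exceptions. Of 20 ion channel and connexin genes measured on both arrays, 14 were lower and 1 higher, with a median of -3.31, and 11 were in sham alone. Kcnq1, a repolarising potassium channel, was at 3.18 in sham and -5.24 in the cells, 343-fold lower, and Scn4b and Fxyd1, accessory subunits of the sodium channel and the sodium pump, 97.2-fold and 92.2-fold. Gja1 (connexin 43), the main gap junction protein of ventricle, differed by 0.59, with a level of 3.44 in the cells and 2.85 in sham. Of 12 genes of natriuretic peptides and other secreted heart hormones on the array, 7 were well above background in sham alone, 0 in the cells alone, 3 on neither array and 2 on both. Those 2, Hamp (hepcidin) and Apln (apelin), were 73.2-fold and 4.77-fold lower. Of all features, 4.04% were in sham alone and 9.53% in the cells alone. Nppb, the B-type natriuretic peptide, was at least 5003-fold lower and Nppa, the atrial peptide, at least 782-fold, with Nppa at 2.82 in sham and up to 6.51 among the other myocardial arrays. Myl7, the atrial regulatory light chain, ranged even further among myocardial arrays, from -0.45 in sham to 7.62 in the PBS array.

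Transcription factors of the heart were lower without exception among those past 2-fold. Of 14 measured on both arrays, 12 were lower and 0 higher, with a median of -2.09, and 7 were in sham alone. Nkx2-5, a homeobox factor that specifies heart, was at 2.24 in sham and -5.31 in the cells, 187-fold lower. Gata4, a zinc-finger factor of heart and other mesoderm, was 9.28-fold lower, and Hand2 11.9-fold. Irx4, a factor of ventricular identity, was at least 137-fold lower, and Myocd (myocardin), the coactivator of serum response factor, at least 42.5-fold. Factors in wide use came closer: Srf was 3.44-fold and Mef2a 2.91-fold lower, and Mef2d differed by 0.34. Ppargc1a, the coactivator that drives mitochondrial gene expression, was at least 56.6-fold lower, and its relative Ppargc1b 69.8-fold.

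Mitochondrial energy genes were lower almost as a block, by a much narrower margin than the sarcomere. Of 48 electron transport and ATP synthase genes measured on both arrays, 45 were lower in the cells and 0 higher, with a median of -3.09. Most subunits lay close together, for example the complex I subunit Ndufs1 at -3.83, the complex II subunit Sdha at -3.28, the complex III subunit Uqcrc1 at -3.31 and the ATP synthase subunit Atp5f1a at -3.10. Cox8b and Cox6a2, forms made mainly in striated muscle, lay much further out. Cox8b was at 8.16 in sham and -5.96 in the cells, 17830.0-fold lower and the furthest of all named genes measured on both arrays, and Cox6a2 was 1386-fold lower. Their partners of other tissues, Cox8a and Cox6a1, differed by -0.94 and -0.48. Ckmt2, the mitochondrial creatine kinase of muscle, was at least 26986-fold lower.

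Fuel pathways that feed the respiratory chain were lower as well. All 24 citrate cycle and ketone-use genes measured were lower in the cells, with a median of -2.94, from Suclg2, a succinate-CoA ligase subunit, at -1.10 (-0.90 with scaling to the array median) to Oxct1, which activates ketone bodies, at -4.64. Of 29 fatty acid oxidation genes, 27 were lower and 1 higher, with a median of -3.11. Fabp3, the fatty acid binding protein of heart, was 305-fold lower, Cpt1b, the muscle gate for fatty acid entry into mitochondria, 182-fold, and Cd36, the fatty acid translocase, at least 5765-fold. Acsl4, which activates arachidonic acid, was 7.53-fold higher. Glycolysis and glucose uptake were mixed, with 17 of 33 lower, 6 higher and a median of -1.09 (-0.81 with quantile normalization). Slc16a3, the lactate exporter MCT4, was 26.3-fold higher and Slc2a1, the glucose transporter of most cultured cells, 3.00-fold, while Slc2a4, the insulin-responsive transporter of muscle and fat, was 111-fold lower. Ldha, the lactate dehydrogenase subunit of glycolytic tissue, differed by -0.63, and Ldhb, the heart subunit, was 88.9-fold lower.

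Many proteins have a form used in striated muscle and a form used elsewhere, and 35 pairs chosen in that way were set side by side. Some pairs join relatives rather than muscle and general forms of the same protein, such as Ryr2 and Itpr3 or Idh2 and Idh1. Actc1 was paired with both Actb and Acta2. In 23 pairs both forms were measured on both arrays. The muscle form was lower in 21 of the 23, the other form was higher in 9, and the muscle form had the more negative difference in 22. In 8 pairs the forms went opposite ways by 2-fold. These were the glucose transporters Slc2a4 and Slc2a1, the fatty acid binding proteins Fabp3 and Fabp5 (-8.25 and 1.13), the actins Actc1 and Acta2 (-8.78 and 2.92), the intermediate filaments Des and Vim (-7.12 and 3.68), the calcium channels Ryr2 and Itpr3 (-1.52 and 2.50), the AMP deaminases Ampd1 and Ampd2 (-2.92 and 1.45), the cofilins Cfl2 and Cfl1 (-1.64 and 1.90) and the isocitrate dehydrogenases Idh2 and Idh1 (-4.58 and 1.05). Of these, Ampd2 came to 0.75 with normexp and Idh1 to 0.96 with the 75th percentile of bright probes, both under 2-fold, and the number of opposite pairs ranged from 7 to 12 over the alternatives. The adenine nucleotide carriers ran the other way, with the muscle form Slc25a4 at -1.35 and the general form Slc25a5 at -2.96. The hexokinases Hk2 and Hk1 differed by -0.39 and -0.32. In 10 more pairs the muscle form was well above background in sham alone, among them Ckm (muscle creatine kinase, at least 12833-fold lower, beside a log2 difference of -1.70 for the brain form Ckb) and Pgam2 (muscle phosphoglycerate mutase, at least 4577-fold lower, beside a log2 difference of 0.86 for Pgam1).

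**Figure D3:**
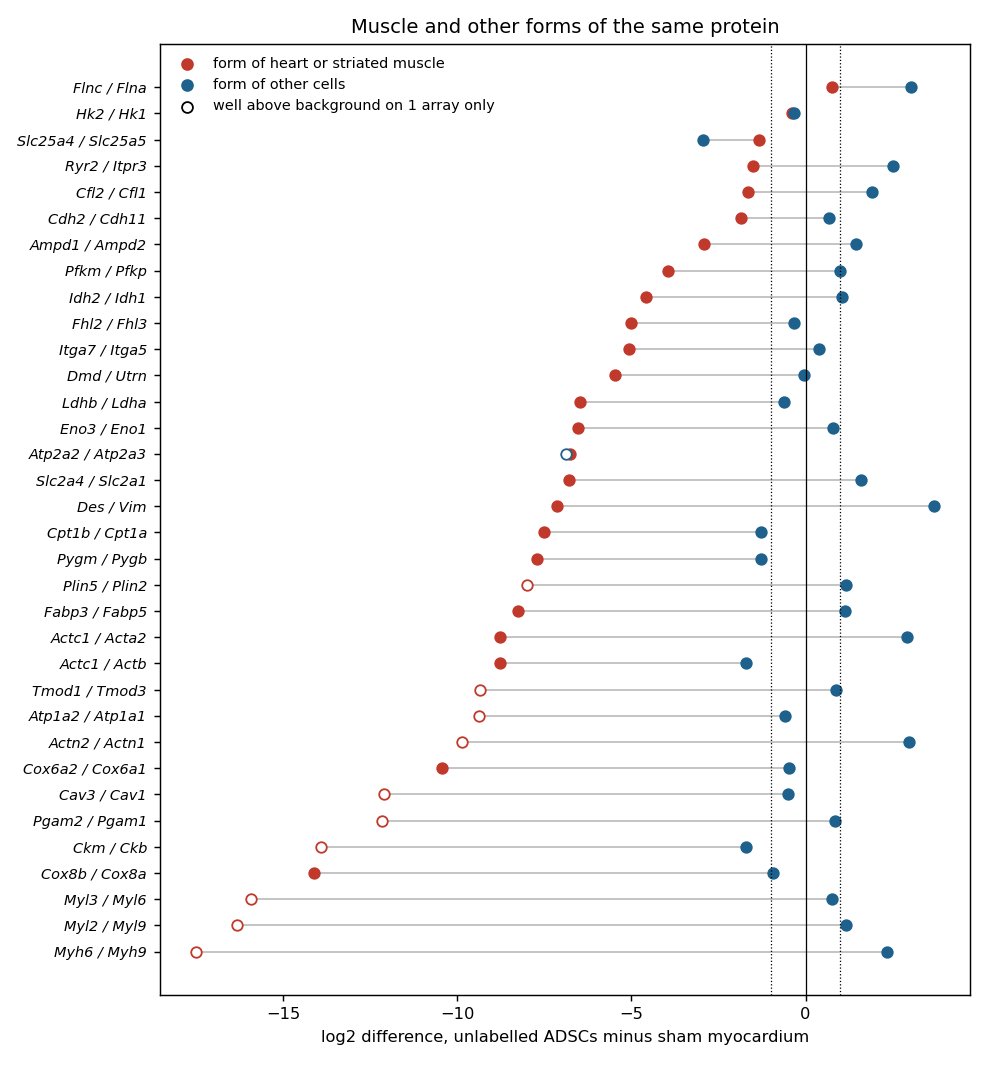
Log2 difference, unlabelled ADSCs minus sham, for the muscle form (red) and the other form (blue) of each pair of proteins; dotted lines mark 2-fold and open symbols genes not well above background on 1 array, whose plotted difference is as measured and not a bound. Red symbols lie to the left of blue ones in all but a few pairs, such as Slc25a4 and Slc25a5, and the Hk2 and Hk1 symbols nearly coincide.

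Collagens and the enzymes that process them were mostly higher in the cells. Of 14 collagen genes measured on both arrays, 9 were higher and 0 lower, with a median of 1.55. Col1a1, the alpha1 chain of type I collagen, was at 6.93 in the cells and 2.63 in sham (2.35 to 2.72 over the 4 myocardial arrays), 19.7-fold higher. Its partner chain Col1a2 was 3.12-fold higher, and Col3a1 of type III collagen 6.27-fold. Col4a1 of basement membrane differed by 0.48, and Col4a4 was at least 14.1-fold lower. Of 17 processing and crosslinking enzymes, 15 were higher and 1 lower, with a median of 2.97. Loxl1, a lysyl oxidase that crosslinks elastin and collagen, was 28.8-fold higher, Plod2, which hydroxylates lysine for crosslinks, 12.1-fold, and Serpinh1, the collagen chaperone HSP47, 6.43-fold. Tgm2, a transglutaminase, was 5.56-fold lower. Crtap, a partner of prolyl hydroxylation, gave -0.71 by its brightest probe and 3.64 by its other probe.

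Glycoproteins of the matrix spread widely in both directions. Of 28 measured on both arrays, 17 were higher and 8 lower in the cells, with a median of 1.58. Thbs2 (thrombospondin 2, an inhibitor of vessel growth) was at 5.57 in the cells and -1.14 in sham, 104-fold higher. Fn1 (fibronectin) was 56.1-fold higher, Postn (periostin) 38.7-fold and Ltbp2 (a latent TGF-beta binding protein family member) 97.2-fold. Tnc (tenascin C, a glycoprotein of injured and embryonic tissue) was well above background in the cells alone. In the other direction, Sparcl1 (hevin) was 798-fold lower, at -6.27 against 3.37, while its relative Sparc (osteonectin) was 2.43-fold higher. Vtn (vitronectin) was at least 361-fold lower, Ltbp4 20.4-fold and Mgp (an inhibitor of calcification) 14.3-fold.

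Proteoglycans and matrix proteases also held genes of both directions. Gpc3, a cell-surface heparan sulphate proteoglycan, had the largest positive difference of all named genes measured on both arrays, at 3.23 in unlabelled and 3.00 in labelled cells against -4.69 in sham and -4.69 to -2.14 over the 4 myocardial arrays, 242-fold higher than sham. Vcan (versican) was 29.2-fold higher and Sdc1 (syndecan 1) 28.4-fold, while Sdc3 was 5.57-fold lower. Over the list of 20, 9 were higher and 5 lower, with a median of 0.52. Of 23 proteases and inhibitors, 15 were higher and 3 lower, with a median of 1.70. Mmp14, the membrane collagenase that activates Mmp2, was 37.5-fold higher, and Mmp2, gelatinase A, 6.04-fold. The 4 tissue inhibitors of metalloproteinases divided, with Timp1 43.3-fold and Timp2 3.26-fold higher, Timp4, the form of heart, 93.3-fold lower and Timp3 at least 24.5-fold lower.

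The cytoskeleton of non-muscle cells stood higher as a group, with 26 of 36 genes higher, 1 lower and a median of 1.80. S100a4, a calcium-binding protein of motile mesenchymal cells, was 30.4-fold higher, Vim (vimentin) 12.8-fold, Anxa2 7.17-fold, and the actin crosslinkers Flna and Actn1 8.22-fold and 7.79-fold. The lower gene was Actb, cytoplasmic beta actin and a common reference gene, at 5.70 in the cells and 7.40 in sham, 3.25-fold lower, while gamma actin, Actg1, was 2.40-fold higher. Actin genes are near-identical in coding sequence and their probes may share targets. Gapdh, another common reference, was 2.52-fold lower, and -0.96 in log2 after quantile normalization, just under 2-fold. Among genes of smooth muscle and myofibroblasts, 8 of 17 were higher and 7 lower: Tpm2 was 9.42-fold and Cald1 5.34-fold higher, whereas Myh11, the myosin of mature smooth muscle, was 10.6-fold lower.

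**Figure D4:**
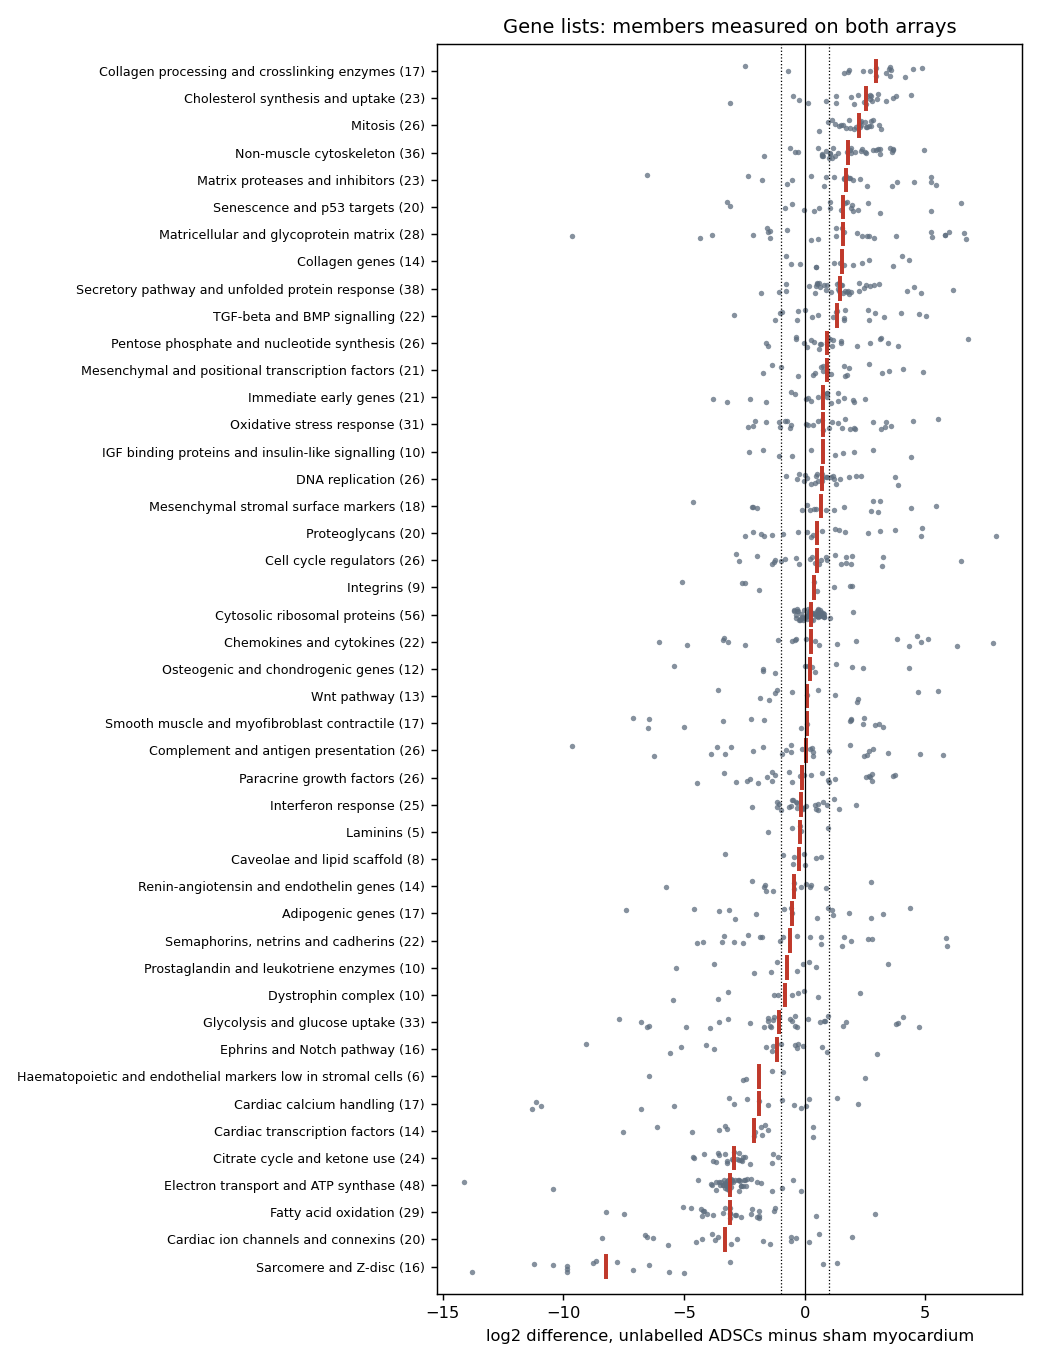
Log2 difference, unlabelled ADSCs minus sham, of each member measured on both arrays (points) in every program list with at least 5 such members, ordered by the list's median (red bar), with the number of members in brackets; dotted lines mark 2-fold. Collagen-processing enzymes have the highest median at 2.97 and the sarcomere the lowest at -8.22, and ribosomal proteins gather near 0.

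Secreted antagonists led the TGF-beta and BMP families. Ligands of these families act through paired serine kinase receptors, and gremlin, noggin and follistatin bind and block them outside the cell. Grem1 (gremlin 1, a BMP antagonist) was at 5.23 in unlabelled and 5.79 in labelled cells and not well above background in sham at -7.70, at least 1816-fold higher, the largest bound on that side. Fst (follistatin, an activin antagonist) was 32.6-fold higher. Among ligands, Inhbb and Inhba, the activin subunits, were 26.7-fold and 6.31-fold higher and Tgfb2 7.43-fold, while Bmp4 was 2.36-fold lower and Tgfb3 differed by -0.29. Inhbb's other probe gave 0.75. Receptors lay closer to sham: Tgfbr1 differed by 0.00 and Bmpr2 by -0.33, Tgfbr2 was 2.47-fold higher, and Bmpr1b was in the cells alone, at least 25.5-fold higher. Over the list, 13 of 22 were higher and 3 lower, with a median of 1.32 (0.77 with normexp).

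The CCN family, matricellular proteins that carry growth-factor binding modules, was higher in every member that was measured. All 4 measured on both arrays were higher, with a median of 4.02: Ccn5 was 157-fold higher, Ccn3 27.2-fold, Ccn2 (connective tissue growth factor) 9.63-fold and Ccn1 6.26-fold. Ccn4 was in the cells alone, at least 191-fold higher. Ccn5 had a level of 3.09 in the cells and -4.20 in sham, and reached -0.61 on another myocardial array. In the Wnt pathway the secreted inhibitors Sfrp2 and Sfrp4 stood out, 46.5-fold and at least 105-fold higher, with the receptor Fzd2 25.7-fold higher. Wnt11 was 12.0-fold lower, and the list as a whole had 5 higher and 5 lower of 13, with a median that took either sign over the scalings (-0.24 to 0.31).

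Growth factors for vessels and neighbouring cells, the paracrine output often ascribed to ADSCs, were split. Of 26 measured on both arrays, 9 were higher and 10 lower, with a median of -0.10 (-0.18 to 0.10 over the scalings). A further 8 were in the cells alone and 4 in sham alone. Within the VEGF family, Vegfc and Vegfd, ligands of lymphatic endothelium, were 6.88-fold and at least 65.1-fold higher in the cells, whereas Vegfa, the main factor for blood vessels, was at 2.45 against 5.31, 7.25-fold lower, and Vegfb 10.1-fold lower. Fgf7, a factor for epithelia, was at least 56.1-fold higher and Fgf2 6.46-fold, while Fgf1 was 5.22-fold lower. Hgf, hepatocyte growth factor, was in the cells alone at a level of -4.10, near the lowest signals, at least 2.83-fold higher. Igf1 differed by -0.18 and Pdgfa by -0.02. Igf2 was 21.9-fold lower. Among IGF-binding proteins, Igfbp6 was 21.0-fold and Igfbp4 7.01-fold higher and Igfbp5 at least 27.1-fold lower. Angptl4, a lipase inhibitor, differed between the cell arrays themselves, at -1.67 in unlabelled and 3.58 in labelled cells, beside -2.94 in sham.

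Chemokines and cytokines also divided. Ccl7 and Ccl2, attractants of monocytes, were at 3.81 and 4.81 in the cells and -4.00 and -1.49 in sham, 225-fold and 78.9-fold higher. Cxcl14 was 34.5-fold higher, Cxcl1 (an attractant of neutrophils) 14.1-fold, Il33 (an alarmin) 28.1-fold and Il1rn (the antagonist of interleukin 1) 25.4-fold. Il1rl1, the receptor of interleukin 33, was in the cells alone, at least 1074-fold higher. Il6 was near the lowest signals, at -4.50, at least 2.15-fold higher. On the other side, Ccl3, Ccl4 and Il1b, which macrophages are known to make, were in sham alone, at least 12.0-fold, 5.23-fold and 10.2-fold lower in the cells, and Tnf was 29.5-fold lower. Ccl5, Il16 and Ccl24 had log2 differences of -3.40, -3.36 and -0.35. Cxcl12, a retention signal for stem cells, was 2.56-fold higher by its brightest probe and 3.97 in log2 by its other probe. In all, 9 of 22 measured on both arrays were higher and 7 lower, 5 were in the cells alone and 9 in sham alone, and the median took either sign over the scalings (-0.11 to 0.44).

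Complement and antigen presentation held genes of both directions, with 9 of 26 higher and 8 lower and a median between -0.22 and 0.25 over the scalings. A further 6 were in sham alone and 0 in the cells alone, against 4.04% and 9.53% of all features. The initiating proteases C1r and C1s were 7.17-fold and 6.29-fold higher in the cells, Cfi (the protease that inactivates C3b) 52.9-fold, and Cd55, a membrane regulator, 27.2-fold. Among genes of class II presentation, Cd74, the invariant chain, was 797-fold lower, RT1-Bb 75.8-fold, RT1-Db1 14.9-fold and RT1-Da at least 113-fold. The chains of the peptide-loading catalyst, RT1-DMa and RT1-DMb, went opposite ways, with log2 differences of 1.89 and -3.32. Among genes of class I presentation, B2m, the shared light chain, was at -0.12 and the heavy chain RT1-A1 at -0.78, while the heavy chain RT1-A2 was 2.03-fold higher (0.93 in log2 with the 75th percentile of bright probes) and the peptide transporter Tap2 5.90-fold higher. Relatives of these rat genes may share probes. The interferon response list was nearly level, with 18 of 25 within 2-fold, 3 higher, 4 lower and a median of -0.18 (-0.26 to 0.02 over the scalings). Over all features measured on both arrays, 43.7% stood 2-fold apart.

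Transcription factors of mesenchyme and of body position were more often higher than lower in the cells. Of 21 mesenchymal and positional factors measured on both arrays, 10 were higher and 2 lower, with a median of 0.91. A further 6 were in the cells alone and 3 in sham alone. Prrx1, a homeobox factor of limb and connective tissue mesenchyme, was at 3.49 in the cells and -1.42 in sham, 30.1-fold higher. Runx1 was 16.6-fold higher, Snai1 11.2-fold and Twist1 9.28-fold, and Twist2 was in the cells alone, at least 19.5-fold higher. Tcf21, a factor of epicardial and cardiac fibroblast lineages, went the other way, at -1.48 in sham and -8.04 in the cells, at least 39.8-fold lower, as did Meox1, at least 7.43-fold.

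Hox genes, whose clusters record the position of a cell along the body axis, were seen mainly in the cells. Of 21 on the array, 9 were well above background in the cells alone, 0 in sham alone, 3 on both arrays and 9 on neither. Of all features, 9.53% were in the cells alone and 4.04% in sham alone, so the 0 in sham alone lay near that share. Hoxd9 was at 1.30 in unlabelled and 1.09 in labelled cells against -7.64 in sham, at least 119-fold higher. Hoxa7 and Hoxa11 were at least 66.1-fold and 36.9-fold higher, and Hoxb7 and Hoxb4, measured on both arrays, 29.5-fold and 6.17-fold. Hoxc5 differed by -0.29.

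Genes of the lineages that ADSCs can enter went both ways. Of 17 adipogenic genes measured on both arrays, 6 were higher and 6 lower, with a median of -0.55. Pparg, the master regulator of fat cell formation, was 4.05-fold lower than in sham, Fabp4, a fatty acid binding protein of fat cells and capillary endothelium, at least 924-fold, and Cidea, a lipid droplet protein, 170.4-fold. The early regulators Cebpd and Cebpb were 6.75-fold and 3.59-fold higher, and the lipid synthesis genes Fasn and Scd2 9.61-fold and 20.5-fold. Of 8 fat cell markers on the array, 0 were higher, Pparg and the lipase Lipe were lower (11.8-fold for Lipe), and 5 (Adipoq, Lep, Cidec, Retn and Ucp1) were well above background on neither array. The bone and cartilage list had 4 higher and 4 lower of 12, with 6 more in the cells alone and 1 in sham alone: Tnfrsf11b (osteoprotegerin) was 20.0-fold higher, Alpl (alkaline phosphatase) 42.3-fold lower, and Spp1 (osteopontin) 2.48-fold higher, which fell to 0.91 in log2 with normexp.

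Genes of cell division were higher in the culture than in the heart. Of 26 mitosis genes measured on both arrays, 24 were higher and 0 lower, with a median of 2.27, and 5 were in the cells alone. Cdk1, the kinase that starts mitosis, was at 1.96 in the cells and -1.12 in sham, 8.45-fold higher. Its partner cyclins Ccnb1 and Ccnb2 were 8.95-fold and 6.35-fold higher, the kinase Plk1 7.06-fold and the proliferation antigen Mki67 2.85-fold. In labelled cells Cdk1 was at 2.46 and Plk1 at 1.33, against 0.69 for Plk1 in unlabelled cells. DNA replication genes differed less, with 10 of 26 higher, 0 lower and a median of 0.73, and 8 more were in the cells alone and 0 in sham alone: Rrm2 (ribonucleotide reductase) was 14.5-fold and Ccne1 (cyclin E1) 13.2-fold higher, while Pcna, the sliding clamp, differed by 0.26 and Mcm7 by 0.10. Of 26 cell cycle regulators, 9 were higher and 6 lower, with a median of 0.52, and 3 more were in the cells alone. Over all features measured on both arrays, 20.4% were higher and 23.3% lower, so the lower count of regulators was near that share. Of all features on the array, 9.53% were in the cells alone and 4.04% in sham alone. Among inhibitors of the cycle, Cdkn2a (the Ink4a and Arf gene) was at 1.75 against -4.71, 88.1-fold higher, Cdkn2b at least 74.7-fold and Cdkn1c (p57) 9.13-fold. Cdkn1b (p27) and Cdkn2d differed by -0.25 and 0.21, and Rb1, the retinoblastoma protein, was 2.41-fold lower. Neither the dividing share of the culture nor the share of cells that make Cdkn2a can be read from whole-culture RNA. Cdkn1a (p21) gave -0.80 by its brightest probe and 2.15 by its other probe.

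Promoters of mitosis genes are printed here because these genes moved together, and that of Tyms for its E2F form. The mitosis and DNA replication lists differed in TTTGAA and in the E2F forms. Of the DNA replication genes measured on both arrays, 16 of 26 stayed within 2-fold. TTTGAA is the core of the cell cycle genes homology region, CCAAT is bound by NF-Y, and TTTCCCGC and TTTGGCGC are forms of the E2F site. Promoters were again looked up by symbol for the whole lists, with genes on the array or not. Among 29 mitosis promoters found by symbol, TTTGAA was matched on either strand in 22 (75.9%) and CCAAT in 21 (72.4%), against 18.1% and 37.7% of all 27457 promoters. Among 31 DNA replication promoters, either E2F form was matched in 11 (35.5%), against 1.5% of all promoters, and TTTGAA in 2 (6.5%). No mitosis promoter held either E2F form. Over the 1728 promoters of all genes 2-fold higher in the cells the shares were 10.9% for TTTGAA, 37.6% for CCAAT and 2.1% for the E2F forms. The motif matches marked share no letters with each other. The 250 bases before the start are given on the gene's own strand for Cdk1 (chr20:19265043-19265292, plus strand), Ccnb2 (chr8:79981659-79981908, minus strand) and Tyms, thymidylate synthase (chr9:120776084-120776333, minus strand), with TTTGAA and CCAAT (or its reverse complement ATTGG) in capitals in the first pair and the E2F form in the last.
Cdk1: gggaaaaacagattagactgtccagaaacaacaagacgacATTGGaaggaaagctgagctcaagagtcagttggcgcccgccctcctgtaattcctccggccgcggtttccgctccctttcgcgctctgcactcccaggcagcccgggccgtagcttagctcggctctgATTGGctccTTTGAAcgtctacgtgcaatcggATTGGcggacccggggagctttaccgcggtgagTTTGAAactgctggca
Ccnb2: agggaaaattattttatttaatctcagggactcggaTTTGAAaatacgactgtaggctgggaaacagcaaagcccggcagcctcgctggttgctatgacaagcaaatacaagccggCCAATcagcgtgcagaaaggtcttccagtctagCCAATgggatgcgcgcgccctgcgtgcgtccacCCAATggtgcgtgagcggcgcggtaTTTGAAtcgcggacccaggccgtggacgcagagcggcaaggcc
Tyms: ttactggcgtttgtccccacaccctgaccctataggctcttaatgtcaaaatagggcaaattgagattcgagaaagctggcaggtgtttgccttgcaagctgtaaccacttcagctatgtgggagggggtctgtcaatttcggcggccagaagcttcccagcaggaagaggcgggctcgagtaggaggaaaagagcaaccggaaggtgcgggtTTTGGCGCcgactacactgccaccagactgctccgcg
Cdk1 and Ccnb2 each held 3 CCAAT and 2 TTTGAA matches, and Tyms, 2.26-fold higher in the cells (0.49 in log2 with normexp), held its match at position -37.

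Cholesterol synthesis was the metabolic pathway furthest on the side of the cells. Of 23 genes measured on both arrays, 18 were higher and 1 lower, with a median of 2.54, and 3 were in the cells alone. Sqle (squalene epoxidase) was at 2.82 in the cells and -1.58 in sham, 21.0-fold higher, and Msmo1 (a sterol demethylase) was 13.6-fold higher. Abcg1, a cholesterol exporter, was 8.62-fold lower. Fdft1, squalene synthase, differed by -0.25. In the list of pentose phosphate and nucleotide synthesis genes, 12 of 26 were higher, 2 lower and 12 within 2-fold, with a median of 0.94. Psat1 and Phgdh, enzymes of serine synthesis, had log2 differences of 6.75 and 3.45, Shmt2 was at 0.91, and Rpia, a pentose phosphate isomerase, was 3.02-fold lower.

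Secretory and stress genes were higher in part. Over all features measured on both arrays, 20.4% were higher and 23.3% lower. The lower counts of antioxidant and immediate early genes were not above that share. Of 38 genes of the secretory pathway and unfolded protein response, 24 were higher and 2 lower, with a median of 1.47. Asns (asparagine synthetase) and Trib3, targets of the factor Atf4, were 70.8-fold and 28.0-fold higher and Atf4 itself 2.71-fold. Creb3l1, a factor for collagen secretion, was 18.9-fold higher. Hspa5 (BiP), the main chaperone of the reticulum, differed by 0.51 and Xbp1 by 0.59, and Herpud1 was 2.09-fold lower, a difference under 2-fold with normexp, quantile or median scaling (-0.99, -0.97 and -0.86 in log2). Among antioxidant genes 14 of 31 were higher and 6 lower. Nqo1 (a quinone reductase) and Hmox1 (heme oxygenase) were 11.9-fold and 10.2-fold higher, while the superoxide dismutases Sod2 and Sod1 were 4.21-fold and 2.12-fold lower (-0.78 in log2 for Sod1 with quantile normalization), the peroxiredoxin Prdx3 5.16-fold and the peroxidase Gpx1 4.43-fold. Of 20 senescence and p53 target genes, 13 were higher and 2 lower, with a median of 1.59 (0.89 with normexp). Bax, a promoter of cell death, was 3.80-fold higher, while Ccng1 (cyclin G1) was 8.59-fold lower and Perp at least 706-fold. Immediate early genes had 7 of 21 higher and 4 lower: Junb was 5.60-fold higher and Fosl1 at least 39.7-fold, but Jun was 4.85-fold lower.

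Ribosomal proteins were nearly level with the reported scaling, and most measured genes of caveolae were within 2-fold. Over all features measured on both arrays, 43.7% stood 2-fold apart. Of 56 cytosolic ribosomal protein genes, 54 were within 2-fold, 2 were higher and 0 lower. Their median was 0.25 (0.17 to 0.84 over the scalings), and the lowest value was -0.45 for Rpl13. Rpl3 was 4.06-fold higher. Of 8 genes of caveolae and lipid scaffolds measured on both arrays, 7 were within 2-fold, for example Cav1 at -0.49, and Cav2 was 9.79-fold lower. Another 2 were in sham alone, among them Cav3, the caveolin of muscle, at least 1959.5-fold lower. Laminins had 4 of 5 within 2-fold, too few genes to set against the share over all features, and a median between -0.26 and 0.02 over the scalings. The dystrophin complex was not level, with 5 of 10 lower, 1 higher and 3 more in sham alone. Dmd (dystrophin) was 44.6-fold lower and Sgca (alpha-sarcoglycan) at least 543-fold, while Utrn (utrophin) differed by -0.04 and Dag1 (dystroglycan) by -0.28.

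Other genes are named for the size of their difference. Higher in the cells were Il17re, an interleukin 17 receptor subunit, at 2.62 against -5.04 (203-fold), Serpinb1a, an elastase inhibitor (124-fold), Gpnmb, a glycoprotein of lysosomes (101-fold), the neurotrophic factor Artn (99.0-fold), the adenosine receptor Adora2b (98.6-fold), the vasopressin receptor Avpr1a (94.6-fold) and the potassium channel Kcnk12 (93.3-fold). In the cells alone were Steap1, a metalloreductase (at least 655-fold higher), Wfdc18 (at least 597-fold), the pentraxin Ptx3 (at least 341-fold), Scd, a fatty acid desaturase (at least 171-fold), and Tmem119 (at least 177-fold), which a dimmer probe measured on both arrays at 4.51. Lower were Apobec2, a muscle protein of the deaminase family (3359-fold), Asb2, a muscle ubiquitin ligase subunit (3058-fold), Mb, the oxygen store myoglobin (2942-fold), Myl4, the atrial essential light chain (1397-fold), Myh8 (2917-fold), Chchd10, a mitochondrial protein (1025-fold), and Perm1, a regulator of muscle mitochondria (967-fold). Myl4 was at 6.99 to 7.35 over the 4 myocardial arrays. Probes of Myl4 and Myh8 may also report other myosin genes, which was not tested. Haemoglobin genes, made by red cells, were also lower: Hbb was at least 29837-fold lower in the cells, Hbb-bs 15671-fold and Hbe2 14039-fold by the same kind of bound, and Hbb-b1 and Hba-a1 were 2988-fold and 262-fold lower, though globin genes can share probes.

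**Figure D5:**
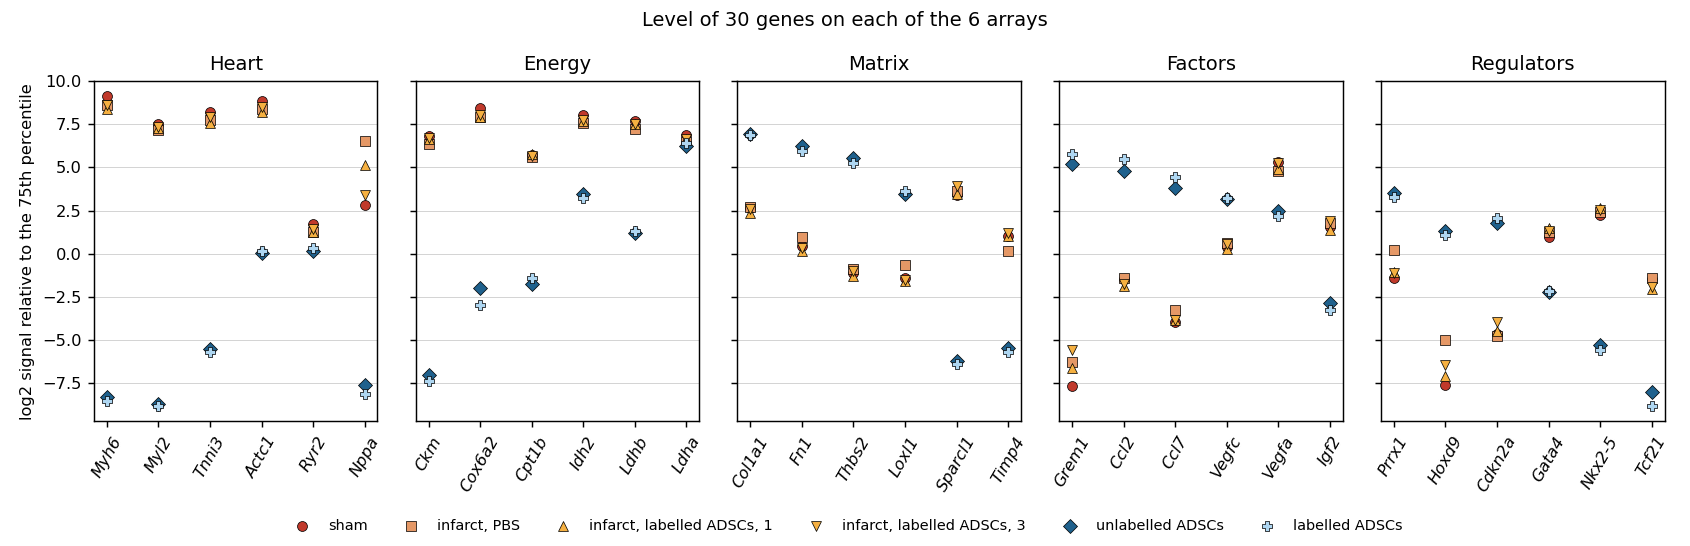
Log2 level of named genes on each of the 6 arrays, in 5 panels; each symbol is 1 array, warm colours mark myocardium and blue the cells. The 2 cell arrays lie together and apart from the 4 myocardial arrays for most of these genes, while for Ldha all 6 arrays are close and Nppa varies among the myocardial arrays.

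The other arrays give the same contrast without sharing an array: labelled ADSCs against PBS-injected infarcted myocardium, which differ also by tracer and infarction. Over 15467 features measured on all 4 arrays, 3199 were higher in unlabelled cells than in sham, and 2611 of them (81.6%) were also 2-fold higher in labelled cells than in PBS, where 19.5% of all features were. Of 3490 lower, 2811 (80.5%) were also lower, where 21.4% of all were. As a share of the labelled-against-PBS calls, these were 86.4% and 85.0%. Opposite calls were 4 and 3. Within the arrays, probes spotted 10 times had a median SD of log2 signal of 0.07 in the cells and 0.11 in sham, well under the log2 difference of 1 that 2-fold stands for. That is the noise between spots of 1 array, not the spread between animals or cultures.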

How the data were processed

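RNA of 6 samples was hybridised to 1-colour Agilent rat arrays, 1 array a sample. Per the submitters' processing notes, signals were extracted with Agilent Feature Extraction 11.0.1.1. The authors deposited the scanner files, whose processed signal is an intensity per spot with background removed, per the file headers; further steps are not given in the sources used. The deposited value table was not used. The samples were grouped by their titles.

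Control spots and spots with an outlier flag were left out, spots of a probe were averaged, and log2 of the processed intensity was taken minus each array's 75th percentile. A probe was well above background where the scanner's flag said so for the majority of its spots. Of 30367 probes, 18355 were named through their unversioned accession in the RefSeq gene table (GRCr8, used for names and promoters only). The others are counted as features without a name. The brightest probe stood for a gene. Members, gene lists and alternatives were chosen with earlier results of these data known. Genes named are the 15 highest and 15 lowest differences, the 8 largest bounds each way, up to 6 extreme members of each list and members with a defining role. Some genes that this rule names are not reported here. Smaller differences named in the text are of such members. Promoters were searched on both strands in windows of 300 bases. The TATA box (TATAAA), the GC box (GGGCGG), the AP-1 site (TGANTCA), a nuclear receptor site (AAGGTCA), a sterol element (TCACNCCAC) and an amino acid response element (TGATGNAA) were searched as well and are not described. Motif forms may overlap each other.

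Alternatives were normexp (limma 3.58.1, R 4.3.3, offset 50, on the median signal), quantile normalization, scaling to the median or to the 75th percentile of bright probes, the median over probes, other filters, flagged spots kept, and thresholds of 4-fold and 1.5-fold. The scaling of probe levels was tested on simulated data, by the differences recovered and by unchanged probes past 2-fold. The choice of probe, the bounds and the list and pair counts were not tested in that way. Python 3.11.15 with numpy 2.4.6, pandas 2.3.3 and matplotlib 3.10.9 was used. The number of arrays, 1 a group, limits the precision.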

Additional observations from a re-analysis of the deposited data

How the results depend on the processing

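The 2-fold counts of 3227 higher and 3675 lower features ranged from 2431 to 3957 higher and from 3122 to 4134 lower over the background corrections and scalings. The share of calls that were higher ran from 37.0% with normexp to 55.9% with scaling to the array median. Without a filter on dim probes 4766 features were higher and 9913 lower (32.5% of calls higher), and counting features well above background on either array gave 4721 and 4799. A 4-fold threshold left 1111 and 1594, and a 1.5-fold threshold gave 4946 and 5117. Of 64 list medians, 58 kept their sign under every scaling and 6 (laminins, Wnt, paracrine factors, chemokines, interferon response, complement) did not, all with a reported median close to 0. With dim signals kept as measured, the lymphatic endothelial median turned from 2.76 to -0.49 and the mesothelial one from -1.58 to 1.83, since genes seen on 1 array only then entered lists of 2 measured members. No single gene past 2-fold reversed where an alternative gave a value. Of 994 genes, 993 had a value with normexp and 942 with the median over probes, and the rest were not compared there. Changes of sign among genes under 2-fold were not counted, and the probes of Crtap, Pkm and Cdkn1a ran opposite ways. Probes of genes past 2-fold could conflict too. Of 644 other probes of such genes, 36 had the opposite sign and 12 of these passed 2-fold that way, as for Tpm1. With normexp 44 fell under 2-fold and 12 rose past it. No paired analysis was possible because each group has 1 array. Dim probes limit the comparison on the sham side, where the lowest level well above background was -5.60 against -6.80 in the cells.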

Other observations

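Guidance and contact genes were widely spread in both directions. Slit2 and Slit3, secreted repellents of the Slit family, were at 3.77 and 4.56 in unlabelled cells and -2.12 and -1.31 in sham, 59.0-fold and 58.5-fold higher, and their receptor Robo2 was well above background in the cells alone, at least 4.94-fold higher. Cdh3 (P-cadherin) was at least 128-fold higher, while Cdh2 (N-cadherin), which joins cardiomyocytes, was 3.61-fold lower and Cdh13 7.54-fold lower. Of 22 semaphorin, netrin and cadherin genes measured on both arrays, 7 were higher and 10 lower, with a median of -0.60. In the ephrin and Notch list 8 of 16 were lower and 1 higher, with a median of -1.15 (-0.79 with quantile normalization). Efnb3, an ephrin ligand, was 529.9-fold lower, Notch1 and Notch4, receptors of vessels and other tissues, 34.7-fold and 48.0-fold, and Hey2, a Notch target of ventricle and arteries, at least 20.2-fold. Ephb6 was 7.91-fold higher.

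Among genes of lipid mediators, Ptgs1 (cyclooxygenase 1) was 11.1-fold higher in the cells and Ptges, the inducible prostaglandin E synthase, at least 32.9-fold higher, with Ptges at -0.56 in unlabelled and -0.05 in labelled cells against -6.79 in sham. Ptgds, the prostaglandin D synthase, was 13.7-fold lower, Pla2g2a, a secreted phospholipase, 40.1-fold lower, and Alox5, the leukotriene enzyme of leukocytes, was in sham alone, at -3.34. Among receptors for circulating signals, Agtr1a (angiotensin) was 6.78-fold higher and Adra1b (adrenergic) 53.3-fold lower, while Chrm2, the muscarinic receptor of heart, was at least 46.7-fold lower. Itga7, the laminin receptor subunit of muscle, was 33.7-fold lower, and Itgb5, a vitronectin receptor subunit, 3.88-fold higher. Where 2 probes of a gene were measured they mostly ran alike: of 644 other probes of 602 genes past 2-fold, 460 passed 2-fold the same way and 12 the opposite way. Pkm, pyruvate kinase, gave 0.65 by its brightest probe and -4.08 by the other.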
